A study of Mus musculus with 9 samples.

Results

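Inflammatory, or classical, monocytes leave the blood for inflamed tissue and tumours, and a set of genes named for them was followed here in the immune infiltrate of a mouse melanoma. The set lists 8 names, of which 7, Ly6c2, Hp, Plac8, Chil3, Vcan, Fn1 and Ms4a4c, match an annotated gene among the 22136 genes measured. These 7 were among the 13178 genes with enough counts to test. The remaining name matches no annotated gene and has no values here.

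The data were bulk RNA sequencing of CD45+ cells from subcutaneous tumours that the YUMM 2.1 melanoma line formed in immunocompetent C57BL/6J mice. The groups were anti-B7-H3, anti-PD1 and the isotype control IgG, with 3 libraries each, and every tumour was at 20 to 50 mm3 when its antibody was started. Host, tumour line and sort were common to all groups, and YUMM 2.1 is a single line, so the libraries describe 1 tumour model. The submitters' design also names a combination of both antibodies, which was not analysed here. No label says whether the 3 libraries of a group came from separate mice, so the p-values measure only the spread between these samples, which may be technical.

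Classical monocytes are made in the bone marrow under the transcription factors PU.1 and KLF4, carry the surface protein Ly6C in mice and enter tissue through the chemokine receptor CCR2. In tumours they lose Ly6C as they turn into macrophages and dendritic cells, and several of their genes are shared with those descendants, with neutrophils or with lymphocytes. The set joins secreted proteins (haptoglobin, the chitinase-like protein Ym1, fibronectin and versican) with surface and intracellular proteins (Ly6C2, MS4A4C and PLAC8). In bulk RNA, a change in the number of cells of a type and a change in RNA per cell cannot be told apart.

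Library totals ran from 14487012 to 31533106 estimated counts, so 3 counts in a library lie between 0.0954 and 0.208 CPM (counts scaled to a library total of 1000000). Ptprc, the gene of CD45, stood at 1718 to 2348 CPM under anti-B7-H3, 1821 to 2411 CPM under anti-PD1 and 1871 to 2913 CPM with IgG, so the gate marker was present in every library. On a principal component analysis, IgG replicate 2 lay at 192 on the first axis (35.9% of the variance) and the other 8 libraries between -54.9 and 31.1. Anti-PD1 replicate 3 lay at -149 on the second axis (18.5%) and the others between 6.68 and 25.5. These libraries had 1896 and 1248 tested genes at 0 counts, and IgG replicate 3 had 822, against 224 to 308 in the other 6. Results that rest on IgG replicate 2 or anti-PD1 replicate 3 are therefore also given without them.

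Under either antibody the set fell into 3 patterns. The haptoglobin gene Hp was the only member to pass the test, higher with both antibodies than with IgG. Chil3 and Fn1 were higher in every anti-B7-H3 and every anti-PD1 library than in any IgG library, yet did not pass it. Ly6c2, Plac8, Ms4a4c and the sparse gene Vcan overlapped between groups. Under anti-B7-H3 against IgG, 1 of 7 members was called higher by edgeR's quasi-likelihood test with Benjamini-Hochberg adjustment over all tested genes at 0.05, where 0.827% of tested genes were called higher. None was called lower, a call made for 0.0228% of tested genes. Under anti-PD1 against IgG the count was also 1 of 7, against 1.72% of tested genes called higher and 0.0152% called lower.

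By arrangement, 3 of 7 members had all anti-B7-H3 libraries above all IgG libraries, against 9.96% of tested genes, and 3 of 7 had all anti-PD1 libraries above all IgG libraries, against 9.99%. None was arranged the other way, as 5.49% and 6.52% of tested genes were. An unadjusted edgeR p under 0.05 was reached by the same count, 3 of 7, in each comparison, against 8.81% and 10.9% of tested genes. All 7 fitted log2 fold changes were positive in both comparisons with all 9 libraries. Without IgG replicate 2, all 7 were positive under anti-B7-H3 and 4 of 7 under anti-PD1, where 6 of 7 were positive without TMM, the scaling of libraries in edgeR, and without anti-B7-H3 replicate 1, 6 of 7 were positive under anti-B7-H3. Their median was 1.21 under anti-B7-H3 and 1.82 under anti-PD1, both the value of the sparse gene Vcan, while the median over all tested genes was 0.02 and -0.04. With each library left out, the members' median ran from 0.44 (without anti-B7-H3 replicate 1) to 2.24 (without IgG replicate 1) under anti-B7-H3, and from 0.84 (without anti-PD1 replicate 1) to 2.84 (without IgG replicate 1) under anti-PD1. Both comparisons use the same 3 IgG libraries, so they are not independent of each other.

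**Figure D1:**
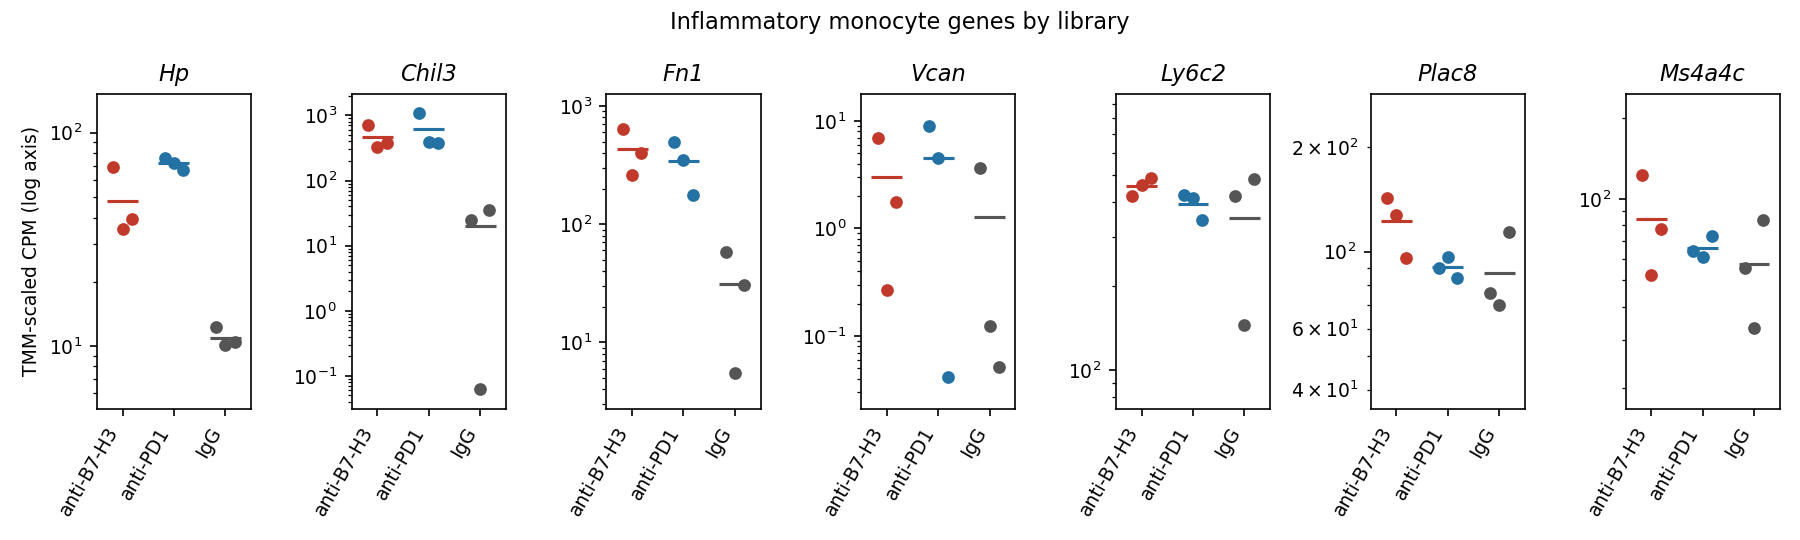
TMM-scaled CPM of the 7 monocyte genes (log axis, a range of its own per gene); each point is 1 library, each bar the group mean, and libraries run from replicate 1 at the left to 3 at the right. Hp, Chil3 and Fn1 lie higher in all anti-B7-H3 and anti-PD1 libraries than in all IgG libraries, and the other 4 genes overlap between groups.

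Hp encodes haptoglobin, the plasma protein that binds free haemoglobin and is stored by neutrophils and monocytes (GRCm38 chr8:109575128-109579172, minus strand). Hp measured 68.8, 35.4 and 39.5 CPM under anti-B7-H3, 76.4, 72.1 and 66.7 CPM under anti-PD1 and 12.2, 10.1 and 10.4 CPM with IgG. The IgG libraries lay close together and far below all others, the anti-PD1 libraries also lay close together, and 1 anti-B7-H3 library reached into their range. The means were 47.9 ± 18.2 CPM under anti-B7-H3, 71.7 ± 4.83 CPM under anti-PD1 and 10.9 ± 1.13 CPM with IgG (SD, n = 3 each), ratios of 4.4 and 6.59 to IgG. Against IgG, Hp rose under anti-B7-H3 by a log2 fold change of 2.14 ± 0.28 (SE, 95% interval 1.51 to 2.76, edgeR adjusted p = 0.00615). Under anti-PD1 it rose by 2.72 ± 0.29 (2.08 to 3.35, edgeR adjusted p = 0.00106). The anti-PD1 call held in all 18 other settings, with edgeR or DESeq2 adjusted p from 5.05e-17 to 0.00622. The anti-B7-H3 call held in 17 of 18 and was lost with only the 6 compared libraries in the fit (log2 fold change 2.15, edgeR adjusted p = 0.0522). The Hp counts per library ran from 163 to 2223, and no stretch of 31 bases of its coding sequence occurs in another gene.

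Chil3 encodes Ym1, a secreted chitinase-like lectin of alternatively activated macrophages, monocytes and neutrophils in mice (chr3:106147554-106167564, minus strand). Chil3 measured 713, 332 and 374 CPM under anti-B7-H3, 1085, 394 and 375 CPM under anti-PD1 and 24.7, 0.0619 and 35.2 CPM with IgG. The lowest antibody library exceeded the highest IgG library several-fold, and the value of IgG replicate 2 was a single count, below the 3-count floor. The means were 473 ± 209 CPM under anti-B7-H3, 618 ± 404 CPM under anti-PD1 and 20 ± 18 CPM with IgG (SD, n = 3 each). The log2 fold changes against IgG were 4.56 ± 1.46 under anti-B7-H3 (95% interval 1.10 to 8.03, edgeR adjusted p = 0.408) and 4.95 ± 1.48 under anti-PD1 (1.42 to 8.48, edgeR adjusted p = 0.262). Neither passed the test, although both intervals lay above 0. Without IgG replicate 2 the log2 fold change was smaller but passed, at 3.99 under anti-B7-H3 (edgeR adjusted p = 0.014) and 4.40 under anti-PD1 (edgeR adjusted p = 0.00723). Without IgG replicate 3 it was larger, 5.24 (edgeR adjusted p = 0.42) and 5.63 (edgeR adjusted p = 0.347), and did not pass. Without both IgG replicate 2 and anti-PD1 replicate 3 it was 3.98 (edgeR adjusted p = 0.0133) and 4.63 (edgeR adjusted p = 0.00685). DESeq2 on all 9 libraries also called it, with an adjusted p of 0.0303 and 0.0074. Over all 18 other settings the adjusted p of edgeR or DESeq2 ran from 0.0133 to 0.756 under anti-B7-H3 and from 0.00685 to 0.518 under anti-PD1.

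The neighbouring gene Chil4 encodes the near copy Ym2. The Chil3 and Chil4 coding sequences, of 1197 and 1209 bases, were identical at 1141 aligned positions and differed at 56. Of the 31-base stretches of Chil3, 35.8% also occur in Chil4, so part of the reads could have been split between them. Chil4 itself was assigned 6, 1 and 1 counts under anti-B7-H3, 3, 0 and 0 under anti-PD1 and 1, 0 and 1 with IgG, so almost all of these counts went to Chil3.

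The region before the Chil3 start is shown because Chil3 had the widest range of the set. RefSeq promoter windows (assembly GRCm38.p6) reach from 250 bases before a gene's start to 50 after it, and were available for Chil3, Ly6c2, Ms4a4c, Plac8 and Vcan. They were searched on both strands for the PU.1 box GAGGAA, present in 28.3% of 32851 such windows, the C/EBP motif TTGCNNAA (10.8%) and the STAT element TTCNNNGAA (8.3%). Matches are in capitals in the windows printed here, and none of them overlaps another. The Chil3 window, chr3:106167515-106167814 on the minus strand, holds 1 STAT element and neither of the other motifs.
Chil3 promoter: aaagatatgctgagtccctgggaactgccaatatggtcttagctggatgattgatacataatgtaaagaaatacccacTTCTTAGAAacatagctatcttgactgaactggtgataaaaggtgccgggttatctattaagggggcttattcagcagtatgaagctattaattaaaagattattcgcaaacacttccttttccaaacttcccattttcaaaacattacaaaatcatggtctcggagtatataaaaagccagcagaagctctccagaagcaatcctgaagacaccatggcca
A match describes the letters of the window and says nothing of whether a factor binds there.

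Fn1 encodes fibronectin, a matrix glycoprotein that monocytes and macrophages secrete as well as fibroblasts (chr1:71585520-71653200, minus strand). Fn1 measured 638, 260 and 399 CPM under anti-B7-H3, 492, 352 and 175 CPM under anti-PD1 and 58.3, 5.45 and 30.3 CPM with IgG. All antibody libraries were above all IgG libraries, anti-PD1 replicate 3 was the lowest of its group, and IgG replicate 2 was the lowest of all 9. The means were 433 ± 191 CPM under anti-B7-H3, 340 ± 159 CPM under anti-PD1 and 31.3 ± 26.4 CPM with IgG (SD, n = 3 each). The log2 fold changes against IgG were 3.78 ± 0.83 under anti-B7-H3 (95% interval 1.86 to 5.71, edgeR adjusted p = 0.139) and 3.44 ± 0.82 under anti-PD1 (1.54 to 5.33, edgeR adjusted p = 0.107). Neither passed the test with all 9 libraries. Without IgG replicate 2 both passed, at 3.29 under anti-B7-H3 (edgeR adjusted p = 0.0298) and 2.96 under anti-PD1 (edgeR adjusted p = 0.0301). Without IgG replicate 1 the values were larger, 4.61 (edgeR adjusted p = 0.0821) and 4.28 (edgeR adjusted p = 0.0697), and did not pass. Without both IgG replicate 2 and anti-PD1 replicate 3 they were 3.28 (edgeR adjusted p = 0.00991) and 3.25 (edgeR adjusted p = 0.0102). DESeq2 called Fn1 on all 9 libraries, with an adjusted p of 6.59e-07 under anti-B7-H3 and 5.2e-06 under anti-PD1. The adjusted p of edgeR or DESeq2 over all 18 other settings ran from 6.59e-07 to 0.364 and from 5.2e-06 to 0.297.

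With Chil3 and Fn1 added to Hp, DESeq2 called 3 of 7 members in each comparison with IgG. It called 3.25% of its tested genes under anti-B7-H3 and 5.44% under anti-PD1. The edgeR fit without IgG replicate 2 also called 3 of 7 in each, against 144 genes (1.03% of those tested) under anti-B7-H3 and 262 (1.88%) under anti-PD1.

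**Figure D2:**
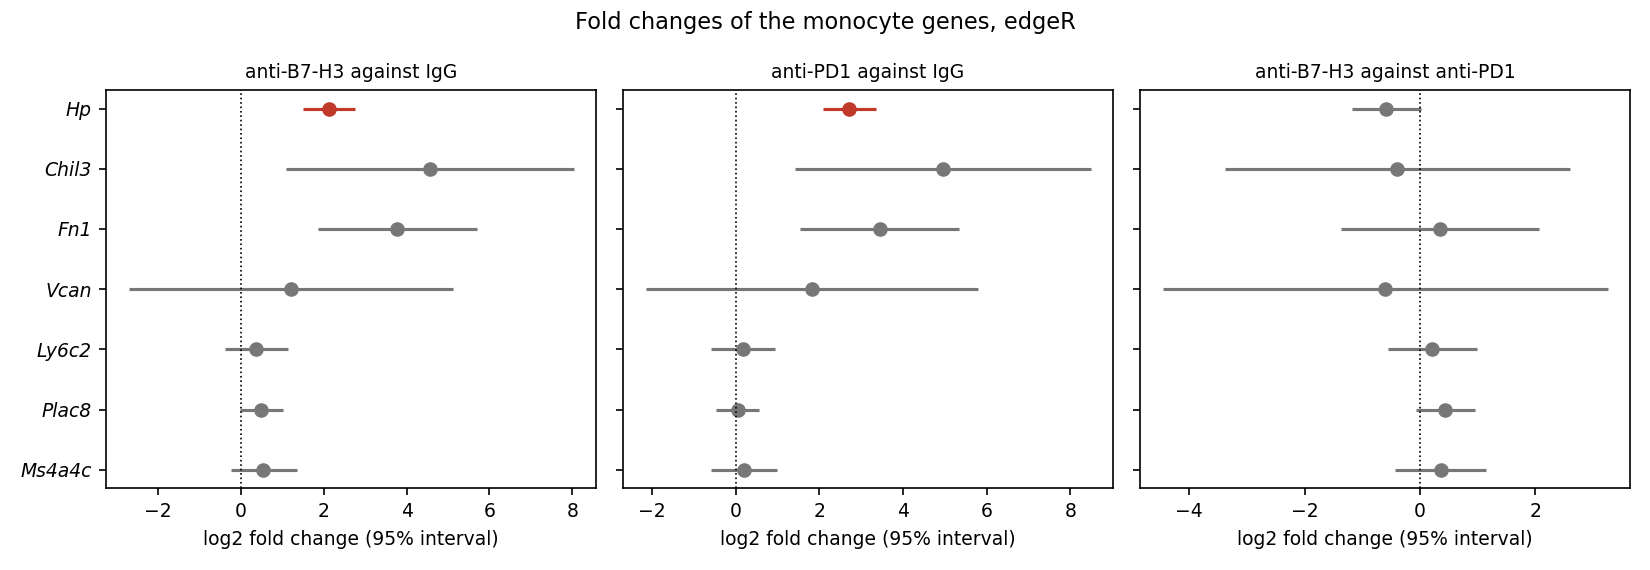
Log2 fold change of each monocyte gene (point) in the 3 comparisons, with an approximate 95% interval computed from the edgeR test statistic (line). The dotted line marks no difference, each panel has its own axis range, and red marks an adjusted p under 0.05. Hp passes in both comparisons with IgG, Chil3 and Fn1 have wide intervals above 0 there, and no gene passes in anti-B7-H3 against anti-PD1.

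Fibronectin transcripts differ by alternative exons, of which extra domain A is known from tissue fibronectin and is absent from the plasma form made by the liver. The exon for extra domain A has 270 bases (chr1:71603660-71603929) and is held by 4 of the 7 annotated Fn1 transcripts that span it. By the authors' transcript TPM values, transcripts with this exon made up 35.6%, 44.4% and 29.2% of spanning Fn1 transcripts under anti-B7-H3, 35.1%, 27.6% and 23.7% under anti-PD1 and 22.6%, 0% and 23.1% with IgG. Each antibody library was above each IgG library, and the antibody groups overlapped. The nearest were anti-PD1 replicate 3 at 23.7% and IgG replicate 3 at 23.1%, and the IgG mean includes 0% in replicate 2. The mean was 36.4 ± 7.63% under anti-B7-H3, 28.8 ± 5.79% under anti-PD1 and 15.2 ± 13.2% with IgG (SD, n = 3 each). The exact two-sided permutation test gave p = 0.1 for each antibody against IgG, the smallest p that 3 against 3 libraries allow, and p = 0.2 for anti-B7-H3 against anti-PD1.

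The spanning estimated counts were 7691.6 to 12913.6 under anti-B7-H3 and 4181.0 to 14293.0 under anti-PD1. With IgG they were only 1159.6, 88.0 and 584.0, so the IgG shares are the least precise. The extra domain B exon (chr1:71613763-71614035), was listed at 0%, 0% and 0.645% under anti-B7-H3, 1.63%, 0% and 0% under anti-PD1 and 0%, 0% and 23.1% with IgG. Near-absent in 8 libraries, it appeared in IgG replicate 3 through the single transcript that carries both exons. These shares are estimates of the quantification, which has to divide reads among transcripts that share most of their sequence.

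**Figure D3:**
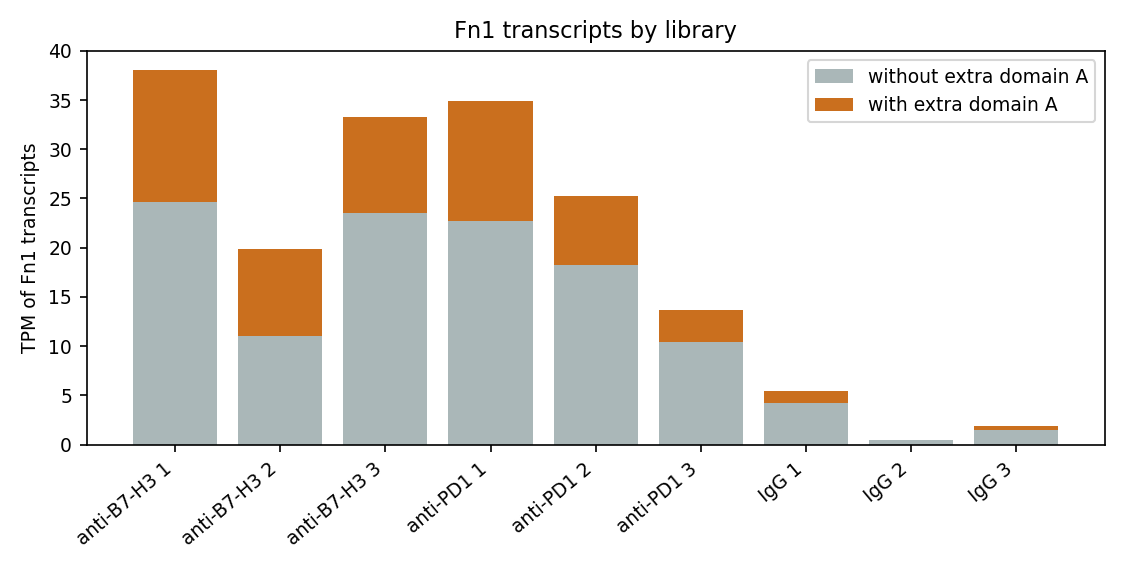
TPM of the 7 Fn1 transcripts that span the extra domain A exon, by library, split into those with and without the exon (stacked bars from 0). Transcripts with the exon make up 29.2% to 44.4% under anti-B7-H3, 23.7% to 35.1% under anti-PD1 and 0% to 23.1% with IgG, on far smaller IgG totals.

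Vcan encodes versican, a matrix proteoglycan that marks classical monocytes in blood (chr13:89655312-89742509, minus strand). Vcan was sparse, with 94, 8 and 57 estimated counts under anti-B7-H3, 262, 123 and 1 under anti-PD1 and 73, 2 and 1 with IgG. As levels these are 6.98, 0.269 and 1.76 CPM under anti-B7-H3, 9, 4.55 and 0.0418 CPM under anti-PD1 and 3.66, 0.124 and 0.0519 CPM with IgG. Every group held both a higher and a near-empty library, and the groups overlapped throughout. The log2 fold changes against IgG, 1.21 ± 1.78 under anti-B7-H3 (95% interval -2.70 to 5.13, edgeR adjusted p = 0.92) and 1.82 ± 1.80 under anti-PD1 (-2.15 to 5.79, edgeR adjusted p = 0.788), have intervals that span 0. The first changes sign to -0.34 without anti-B7-H3 replicate 1 and reaches 5.02 without IgG replicate 1, and the second runs from 0.84 without anti-PD1 replicate 1 to 5.65 without IgG replicate 1. Within anti-B7-H3, the library with 94 counts had a total of 15091916 and the one with 8 had 29353809.

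Ly6c2 encodes Ly6C2, one of the GPI-anchored proteins seen by antibodies to Ly6C, by which mouse classical monocytes are sorted (chr15:75108158-75111970, minus strand). Ly6c2 measured 420, 458 and 489 CPM under anti-B7-H3, 424, 412 and 344 CPM under anti-PD1 and 420, 145 and 482 CPM with IgG. A single IgG library, replicate 2, was low, and the other 8 lay close together in all groups. The log2 fold changes against IgG were 0.38 ± 0.35 under anti-B7-H3 (95% interval -0.38 to 1.15, edgeR adjusted p = 0.86) and 0.17 ± 0.35 under anti-PD1 (-0.60 to 0.94, edgeR adjusted p = 0.915). Without IgG replicate 2 the anti-B7-H3 value was 0.03 and the anti-PD1 value turned to -0.17. The upper bounds lie below the fold changes measured for Hp.

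Most of the Ly6c2 sequence is shared with its neighbour Ly6c1 (chr15:75044018-75048830), whose protein has the same anchor. Their coding sequences, 396 bases each, differ at 9 bases, and 59.6% of the 31-base stretches of Ly6c2 also occur in Ly6c1. The stretch with the most differences, coding positions 6 to 65 counted from the first base of the start codon, holds 6 of the 9. It is printed for both genes from GENCODE M21, with the differing bases in capitals.
Ly6c2 coding: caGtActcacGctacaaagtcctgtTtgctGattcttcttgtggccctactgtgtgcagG
Ly6c1 coding: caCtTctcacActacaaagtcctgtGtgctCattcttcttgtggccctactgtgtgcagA
Reads outside such positions cannot be assigned to 1 of the genes, so the Ly6c2 level is uncertain to that extent. Ly6c1 was assigned 63, 9.97 and 5.21 CPM under anti-B7-H3, 11.3, 5.33 and 9.06 CPM under anti-PD1 and 5.66, 1.3 and 59 CPM with IgG. By TPM it averaged 50.3, 20.6 and 48.8 in the same groups, far below Ly6c2, with the highest CPM in anti-B7-H3 replicate 1 and IgG replicate 3.

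Plac8 encodes a small cysteine-rich protein of monocytes, neutrophils and lymphocytes (chr5:100553725-100572245, minus strand). Plac8 measured 143, 128 and 96.1 CPM under anti-B7-H3, 89.7, 96.6 and 83.9 CPM under anti-PD1 and 75.8, 70.3 and 114 CPM with IgG. The highest IgG library lay inside the anti-B7-H3 range and above all anti-PD1 libraries. The log2 fold changes against IgG were 0.50 ± 0.23 under anti-B7-H3 (95% interval -0.02 to 1.01, edgeR adjusted p = 0.587) and 0.06 ± 0.23 under anti-PD1 (-0.46 to 0.57, edgeR adjusted p = 0.959). The anti-PD1 value turns to -0.03 without TMM scaling and to -0.04 without IgG replicate 2, so it has no settled direction.

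Ms4a4c encodes a membrane protein of the MS4A family, whose best-known member is CD20 (chr19:11404770-11427246, plus strand). Ms4a4c measured 123, 52.5 and 77.8 CPM under anti-B7-H3, 64.1, 60.8 and 72.8 CPM under anti-PD1 and 55.4, 33.4 and 83.6 CPM with IgG. All anti-PD1 values lay within the IgG range, and the anti-B7-H3 range was the widest. The log2 fold changes against IgG were 0.55 ± 0.36 under anti-B7-H3 (95% interval -0.24 to 1.35, edgeR adjusted p = 0.755) and 0.20 ± 0.36 under anti-PD1 (-0.60 to 0.99, edgeR adjusted p = 0.901), the second turning to -0.05 without IgG replicate 2. Its near copy Ms4a4b, a T cell gene, shares 17.7% of the 31-base stretches of Ms4a4c. Ms4a4b stood at 1114, 1068 and 1132 CPM under anti-B7-H3, 857, 1096 and 1010 CPM under anti-PD1 and 1210, 970 and 1590 CPM with IgG, so shared reads could weigh on the Ms4a4c counts.

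The promoter windows of Ly6c2 and Ms4a4c are shown beside that of Chil3 because these genes overlapped between groups. The more downstream of 2 Ly6c2 windows, chr15:75111888-75112187 on the minus strand, holds 2 PU.1 boxes, and the Ms4a4c window, chr19:11407411-11407710 on the plus strand, holds 1.
Ly6c2 promoter: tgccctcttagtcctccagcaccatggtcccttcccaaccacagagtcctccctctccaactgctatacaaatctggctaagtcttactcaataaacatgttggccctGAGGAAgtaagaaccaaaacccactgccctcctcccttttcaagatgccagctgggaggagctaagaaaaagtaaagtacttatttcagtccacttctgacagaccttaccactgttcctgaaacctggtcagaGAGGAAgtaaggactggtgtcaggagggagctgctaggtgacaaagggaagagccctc
Ms4a4c promoter: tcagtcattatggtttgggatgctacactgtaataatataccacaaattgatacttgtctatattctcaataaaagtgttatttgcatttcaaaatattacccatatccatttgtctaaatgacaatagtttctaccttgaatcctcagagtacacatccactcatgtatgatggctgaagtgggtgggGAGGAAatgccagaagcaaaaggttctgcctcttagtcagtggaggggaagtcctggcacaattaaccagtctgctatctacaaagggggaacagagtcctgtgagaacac
Of the windows not printed, the other of Ly6c2, which overlaps the printed one, holds 2 PU.1 boxes, 1 of Plac8 holds 2 PU.1 boxes, another of Plac8 holds 1 C/EBP motif, and that of Vcan holds none of these motifs.

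The antibodies were also compared with each other. None of the 7 members was called in anti-B7-H3 against anti-PD1 by edgeR, where 0% of tested genes were called. Of all tested genes, 425 (3.23%) had an unadjusted p under 0.05 and no member did, and DESeq2 called 18 genes (0.117%) and no member. No member had groups free of overlap, where 7.13% of tested genes were higher in all anti-B7-H3 libraries and 6.4% lower. The log2 difference of Hp was -0.58 ± 0.27 (SE, 95% interval -1.18 to 0.01), that of Plac8 was 0.44 ± 0.23 (-0.07 to 0.95) and that of Ly6c2 was 0.21 ± 0.35 (-0.56 to 0.98). For Ms4a4c it was 0.36 ± 0.36 (-0.44 to 1.15). The intervals of Chil3 (-3.37 to 2.60), Fn1 (-1.37 to 2.07) and Vcan (-4.46 to 3.25) were too wide to tell the antibodies apart or to call them alike.

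Levels of different genes were compared per length, in TPM (transcript abundance scaled to the same total). Ly6c2 was the most abundant member in every group, at 1086 ± 343 TPM under anti-B7-H3, 898 ± 128 TPM under anti-PD1 and 816 ± 388 TPM with IgG (SD, n = 3 each). Plac8 stood at 369 ± 76 TPM, 269 ± 22.4 TPM and 268 ± 35 TPM in the same order of groups, and Ms4a4c at 109 ± 28.9 TPM, 92.8 ± 18.7 TPM and 84.5 ± 22.8 TPM. These 3 kept their order, and their levels lay beyond each other's spread.

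Chil3 stood at 224 ± 55.1 TPM under anti-B7-H3 and 303 ± 195 TPM under anti-PD1, between Ms4a4c and Ly6c2, but at 9.95 ± 8.59 TPM with IgG, below Ms4a4c. Within the anti-PD1 group its spread covers the Plac8 level. Fn1 had 31.1 ± 9.26 TPM under anti-B7-H3, 26.3 ± 11.3 TPM under anti-PD1 and 2.72 ± 2.73 TPM with IgG. Hp had 26.6 ± 4.6 TPM, 41.6 ± 2.14 TPM and 6.83 ± 1.68 TPM. Chil3, Hp and Fn1 did not differ beyond their spread within the IgG group, nor did Fn1 and Hp within the anti-B7-H3 group. Vcan was lowest throughout, at 0.902 ± 0.973 TPM under anti-B7-H3, 1.04 ± 0.905 TPM under anti-PD1 and 0.357 ± 0.468 TPM with IgG.

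The members also differed in how their profiles ran over the 9 libraries. Likeness was the root mean square difference of centred log2 CPM, where 0 means the same profile. It was computed against 9917 tested genes with a mean of at least 5 CPM. Nearest to Hp, whose own root mean square deviation was 1.19, were Cebpb (0.22), the gene of C/EBP-beta, and the chemokine genes Cxcl16 (0.27) and Ccl9 (0.32). Nearest to Chil3 (3.78) were Csf1r (0.77), the receptor of the macrophage growth factor CSF1, Plaur (0.79), the urokinase receptor, and Hmox1 (0.96), a haem-degrading enzyme. Nearest to Fn1 (2.14) were the C-type lectin receptor gene Cd302 (0.50), Fcrlb (0.62) and the keratin gene Krt80 (0.63). Vcan (2.39) had no close neighbour, the nearest being Igkv5-43 (1.25), Palld (1.37) and Fam43a (1.52).

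The members with overlapping groups had other neighbours. Nearest to Ly6c2 (0.51) were Mocs1 (0.13), Lzic (0.14) and Zbtb11 (0.14). Those of Plac8 (0.32) were AB124611 (0.11), Cox10 (0.13) and Desi2 (0.14), and those of Ms4a4c (0.49) were Nob1 (0.16), Rere (0.17) and Qtrt1 (0.21). No member was among the 3 nearest genes of another. Between members, Ly6c2, Plac8 and Ms4a4c differed from each other by 0.36 to 0.41, Hp from Fn1 by 1.22 and Hp from Chil3 by 2.88. A flat profile would differ from a gene by that gene's own deviation, 0.32 for Plac8 and 1.19 for Hp. Plac8 was thus farther from Ly6c2 and Ms4a4c than from a flat profile, as Hp was from Fn1. Small differences between members that vary little do not show that they run together. These are descriptions over libraries that differ in depth and include the low library IgG replicate 2.

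Other genes of classical monocytes were taken from a list of 20, all tested. Of these, 3 rose under anti-B7-H3 and 6 under anti-PD1, and none fell by the edgeR test, with median log2 fold changes of 2.36 and 2.02. Of the 20 fold changes, 15 and 16 were positive. S100a4, Ifi209 and Smpdl3a had negative values in both comparisons, and S100a6 and Emb under anti-B7-H3. Ifi209 was lower in all anti-B7-H3 libraries than in all IgG libraries. Lyz2, the gene of lysozyme, measured 1354, 1005 and 792 CPM under anti-B7-H3, 847, 766 and 573 CPM under anti-PD1 and 166, 54 and 147 CPM with IgG. All antibody libraries were several-fold above the IgG libraries. Lyz2 rose by 3.10 ± 0.40 under anti-B7-H3 (edgeR adjusted p = 0.0051) and by 2.58 ± 0.39 under anti-PD1 (edgeR adjusted p = 0.00726). The lipopolysaccharide co-receptor gene Cd14 rose by 4.48 ± 0.73 under anti-PD1 (edgeR adjusted p = 0.0201). Ccr2, the receptor that directs their entry into tissue, did not pass the test, like Ly6c2. Ccr2 measured 151, 288 and 339 CPM under anti-B7-H3, 298, 306 and 283 CPM under anti-PD1 and 293, 255 and 118 CPM with IgG. Its log2 fold changes were 0.23 ± 0.35 (95% interval -0.54 to 0.99, edgeR adjusted p = 0.925) and 0.42 ± 0.35 (-0.35 to 1.18, edgeR adjusted p = 0.751), with overlapping groups.

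Without IgG replicate 2, 8 and 7 of the 20 were called, and leaving out each library in turn gave 1 to 8 and 1 to 7. Of 12 tested genes of non-classical, patrolling monocytes, 1 rose under anti-B7-H3 and 2 under anti-PD1. The orphan nuclear receptor gene Nr4a1, on which these cells depend in mice, rose by 1.63 ± 0.26 (edgeR adjusted p = 0.015) and 1.97 ± 0.26 (edgeR adjusted p = 0.00382). Nr4a1 stood at 307 CPM in IgG replicate 2, where the listed genes Adgre4, Treml4 and Cd300e were at 0 and Cx3cr1 and Spn were not. Which cells its RNA came from was not tested. The list medians were 2.03 and 1.42, with counts of 0 to 2 and 1 to 2 with each library left out. Of the 12 fold changes, 9 and 8 were positive. Spn was lower in all antibody libraries than in all IgG libraries, Eno3 had negative fold changes in both comparisons, and Cx3cr1 overlapped between groups.

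Among 13 transcription factors of the lineage, 5 rose under anti-B7-H3 and 6 under anti-PD1, with medians of 1.90 and 2.04. Cebpb measured 741, 464 and 424 CPM under anti-B7-H3, 683, 780 and 959 CPM under anti-PD1 and 124, 91.4 and 135 CPM with IgG. The antibody libraries were all above the IgG libraries. Cebpb rose by 2.22 ± 0.27 under anti-B7-H3 (edgeR adjusted p = 0.00383) and by 2.79 ± 0.27 under anti-PD1 (edgeR adjusted p = 0.000645). Spi1, the gene of PU.1, rose by 1.90 ± 0.25 (edgeR adjusted p = 0.00615) and 2.07 ± 0.26 (edgeR adjusted p = 0.0025). Klf4, which is needed for Ly6C-bearing monocytes in mice, rose by 2.57 ± 0.33 (edgeR adjusted p = 0.0051) and 2.87 ± 0.33 (edgeR adjusted p = 0.0019). The count was 4 to 6 and 5 to 6 with each library left out in turn.

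Of 14 tested growth factor, chemokine and receptor genes of monocytes, 3 rose under anti-B7-H3 and 6 under anti-PD1, with medians of 1.57 and 1.97. The GM-CSF receptor genes Csf2ra (2.26 ± 0.43, edgeR adjusted p = 0.0346, and 2.48 ± 0.43, edgeR adjusted p = 0.0152) and Csf2rb (1.74 ± 0.32, edgeR adjusted p = 0.0305, and 1.94 ± 0.32, edgeR adjusted p = 0.0116) rose in both comparisons, as did the chemokine gene Ccl3. With each library left out in turn the counts were 0 to 5 and 2 to 8. Among the binding partners of fibronectin and versican and the enzymes that process them, 2 of 14 rose in each comparison, with medians of 1.17 and 1.64. They were Tgm2, the fibronectin-crosslinking transglutaminase (3.39 ± 0.55, edgeR adjusted p = 0.0236, and 3.27 ± 0.54, edgeR adjusted p = 0.0168), and Tlr2, a receptor of versican (2.11 ± 0.38, edgeR adjusted p = 0.027, and 2.79 ± 0.39, edgeR adjusted p = 0.00476). Leaving out each library gave 0 to 2 and 1 to 2 calls.

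Among 9 tested genes of haptoglobin handling and the acute phase, 1 rose in each comparison, the cytokine gene Osm (2.19 ± 0.27, edgeR adjusted p = 0.0043, and 2.70 ± 0.28, edgeR adjusted p = 0.000865), with medians of 0.97 and 1.30. Of the 9 fold changes, 6 and 5 were positive. The haemoglobin gene Hba-a1 stood at 18, 1.24 and 131 CPM with IgG and at 1.24 to 8.77 CPM in the antibody libraries. Hbb-bs stood at 27.1, 5.69 and 157 CPM with IgG and at 0.343 to 12.5 CPM in the antibody libraries. What raised them in IgG replicates 1 and 3 was not tested. Cd163, the scavenger receptor of haptoglobin and haemoglobin, averaged 2.25 ± 1.66 CPM under anti-B7-H3, 2.51 ± 3.41 CPM under anti-PD1 and 1.01 ± 0.982 CPM with IgG (SD, n = 3 each) and was not called. Of 12 tested near copies and relatives of the members, 2 rose in each comparison, with a median of 0.39 in both. Ms4a6d, of the same family as Ms4a4c, rose by 2.56 ± 0.24 under anti-B7-H3 (edgeR adjusted p = 0.00159) and by 2.62 ± 0.24 under anti-PD1 (edgeR adjusted p = 0.000531). Ms4a6c rose by 1.29 ± 0.22 (edgeR adjusted p = 0.0239) and 1.02 ± 0.22 (edgeR adjusted p = 0.0493). With each library left out, 1 to 3 and 1 to 2 of these relatives were called.

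Markers of other cell types moved beside the members, and their part in the members' values was not tested. Macrophage markers rose for 6 of 15 genes in each comparison, with medians of 3.25 and 3.39, among them the complement genes C1qa, C1qb and C1qc, and for 5 to 7 with each library left out. Their summed level was 523 to 952 CPM under anti-B7-H3, 551 to 945 CPM under anti-PD1 and 92.6 to 142 CPM with IgG. The 7 members summed to 1266 to 2112 CPM, 1117 to 2240 CPM and 265 to 756 CPM in the same groups. Neutrophil markers rose for 4 and 5 of 12 tested genes, with medians of 1.96 and 2.85, and for 3 to 6 and 4 to 9 with each library left out. Their sums were 347 to 581 CPM under anti-B7-H3, 818 to 1057 CPM under anti-PD1 and 104 to 128 CPM with IgG, so none of the 3 groups overlapped another. The calprotectin gene S100a9, which monocytes also express, rose by 1.93 ± 0.26 (edgeR adjusted p = 0.00615) and 3.28 ± 0.27 (edgeR adjusted p = 0.000465). Csf3r, the G-CSF receptor, averaged 75.1 ± 33 CPM under anti-B7-H3, 136 ± 41.8 CPM under anti-PD1 and 7.07 ± 4.11 CPM with IgG (SD, n = 3 each) and was called in both comparisons, as were G0s2 and S100a8. Cxcr2, a chemokine receptor of neutrophils, averaged 14.3 ± 6.54 CPM, 24.9 ± 3.67 CPM and 3.6 ± 2.58 CPM in the same order and was called under anti-PD1. Retnlg and Trem1 were higher in all antibody libraries than in all IgG libraries and were not called. The same held for Mmp8, Mmp9 and Lcn2, while Ltf and Ngp overlapped between each antibody and IgG. Of the remaining listed genes, Ly6g reached at most 1.68 CPM in any library. Elane was at 0 counts in all anti-PD1 and IgG libraries, and Camp and Mpo were at 0 in all anti-PD1 libraries.

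Type 2 dendritic cell markers rose for 2 of 10 genes in each comparison, Mgl2 and Sirpa, with medians of 1.36 and 0.96 and sums of 493 to 625 CPM under anti-B7-H3, 522 to 639 CPM under anti-PD1 and 210 to 219 CPM with IgG. T cell markers had no call among 14 by edgeR or DESeq2 (1 at an unadjusted edgeR p under 0.05 in each comparison), with medians of -0.25 and -0.32. They summed to 4655 to 7128 CPM under anti-B7-H3, 4508 to 5587 CPM under anti-PD1 and 5594 to 7790 CPM with IgG. The IgG sums overlapped those under anti-B7-H3 and all lay above those under anti-PD1, the nearest by a narrow margin. Lymphocytes are known to express Ly6c2 and Plac8 too. Natural killer cell markers had no call among 10 by either tool (4 and 0 at an unadjusted edgeR p under 0.05, medians 0.85 and 0.55), at 2151 to 2915 CPM, 1831 to 2322 CPM and 647 to 2070 CPM in the same order of groups.

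Beside Fn1 and Vcan, which fibroblasts also express, fibroblast markers had no call by edgeR among 7 tested of 12, though DESeq2 called 3 in each comparison, and 3 in each had an unadjusted edgeR p under 0.05. They summed to 87.3 to 92.2 CPM under anti-B7-H3, 115 to 157 CPM under anti-PD1 and 55.2 to 82.7 CPM with IgG, so both antibody groups lay above IgG. The listed gene Thy1 alone stood at 51.7 to 66.4 CPM under anti-B7-H3, 50.7 to 67.4 CPM under anti-PD1 and 52.4 to 81.9 CPM with IgG. Thy1 made up most of every IgG sum, so the sums understate the ratio of the other listed genes to IgG. The list medians were 3.05 and 4.03, fitted in part on genes near 0 counts, and 0 to 1 gene was called with each library left out. Col3a1 averaged 10 ± 2.98 CPM under anti-B7-H3, 15.2 ± 6.17 CPM under anti-PD1 and 0.301 ± 0.521 CPM with IgG (SD, n = 3 each), and Sparc 14.8 ± 7.48 CPM, 39 ± 22.2 CPM and 1.78 ± 2.56 CPM. Both were higher in all antibody libraries than in all IgG libraries, as Fn1 was. Fap was at 0 counts in all anti-B7-H3 libraries, Dcn, Pdgfra and Fap in all anti-PD1 libraries and Dcn and Pdgfrb in all IgG libraries. Col1a1 was at 0.64 to 2 CPM, 0 to 3.37 CPM and 0 to 0.519 CPM. Melanoma cell markers, 3 of 9 tested and none called by edgeR or DESeq2 (1 and 0 at an unadjusted edgeR p under 0.05), summed to 6.2 to 9.33 CPM under anti-B7-H3, 0.376 to 14.3 CPM under anti-PD1 and 2.01 to 11.4 CPM with IgG. Dct was at 0 in all 9 libraries, Mlana in all antibody libraries, and Tyr in all anti-B7-H3 and IgG libraries. No gene of any of these lists was called in anti-B7-H3 against anti-PD1 by edgeR. DESeq2 called 1 neutrophil gene there, and 3 neutrophil genes had an unadjusted edgeR p under 0.05, S100a9 with a log2 difference of -1.35 ± 0.25, G0s2 with -1.22 ± 0.35 and S100a8 with -1.13 ± 0.33.

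**Figure D4:**
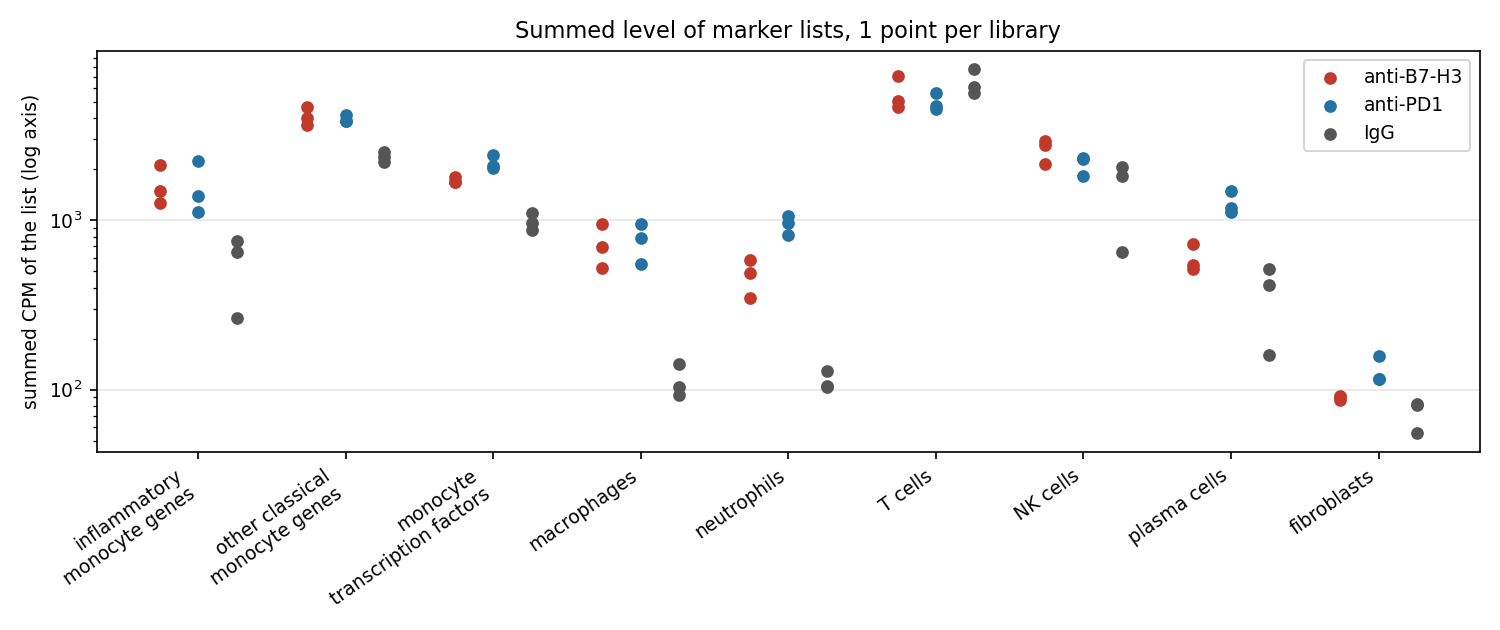
Summed TMM-scaled CPM of the monocyte genes and of marker lists, 1 point per library (log axis). The fibroblast sums include Thy1, which makes up most of every IgG sum. The sums of both monocyte lists, transcription factors, macrophages, neutrophils, plasma cells and fibroblasts lie higher in all antibody libraries than in all IgG libraries. The members lie at 1266 to 2112 CPM under anti-B7-H3, 1117 to 2240 CPM under anti-PD1 and 265 to 756 CPM with IgG. The plasma cell margin under anti-B7-H3 is narrow (514 to 721 CPM, with IgG at 160 to 512 CPM). Natural killer cell sums lie above IgG under anti-B7-H3 and overlap it under anti-PD1. T cell sums under anti-B7-H3 overlap IgG, and those under anti-PD1 (4508 to 5587 CPM) lie just below it (5594 to 7790 CPM).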

How the data were processed

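RNA-seq of CD45+ tumour-infiltrating cells, 9 libraries, was analysed as 3 groups of 3. Per the labels' protocols, RNA was amplified with SMART-Seq v4, depleted of ribosomal RNA and made into Nextera XT libraries, which do not mark strand. Per the submitters' processing notes, the build was GRCm38 and FastQC 0.11.8 was run; the quantifier is not given in the sources used here. The deposited files hold, per the file headers, estimated counts and TPM of 58083 transcripts, 57409 of which matched GENCODE M21 (unmatched, 0.236% to 0.547% of counts). Of the deposited lengths, 87.3% are multiples of 3, so most lengths are coding lengths: 53462 fit the annotated coding part, 2692 the whole transcript and 1255 neither. Estimated counts were summed per gene and rounded. All 9 libraries entered 1 edgeR 4.0.16 fit (R 4.3.3, TMM, filterByExpr, robust quasi-likelihood), adjusted by Benjamini-Hochberg at 0.05, tested on simulated data. CPM values are TMM-scaled. Floors cover counting error only. Alternatives were DESeq2 1.42.0, other scalings, filters and counts, a replicate block, the 6 compared libraries, each library left out and, chosen after seeing the data, IgG replicate 2 and anti-PD1 replicate 3 left out. The members and 20 gene lists were chosen with earlier results of these data known; 1 gene is not reported here. From each list, at most the 4 genes with the smallest p per comparison are named with values, besides those needed to account for a list's calls or zeros, Ccr2, Cd163, Col1a1, Hba-a1, Hbb-bs, Ly6g and Thy1. For each member, the 3 genes nearest in profile are named.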

Additional observations from a re-analysis of the deposited data

How the results depend on the processing

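Of 375 fold changes of single members under 17 other settings and 1 added after seeing the data, 350 kept their direction and their side of the threshold. The number of genes called in anti-B7-H3 against IgG was 112 and became 44 with only the 6 compared libraries, 64 with a replicate block and 438 with DESeq2. In anti-PD1 against IgG it was 229 and became 136, 127 and 733 under the same settings. In anti-B7-H3 against anti-PD1 it was 0 by edgeR (425 at an unadjusted p under 0.05) and 18 with DESeq2. With each library left out in turn the counts ran from 59 to 144, 113 to 262 and 0 to 1. The number of members called against IgG was 1 in each comparison. In anti-B7-H3 against IgG it became 0 with only the 6 libraries. It became 3 in both comparisons with DESeq2 and without both IgG replicate 2 and anti-PD1 replicate 3, and ran from 1 to 3 with each library left out. Without both libraries, 143 genes (1.03% of those tested) were called under anti-B7-H3 and 234 (1.68%) under anti-PD1. The cause of these changes in counts was not tested. Same-numbered libraries had deviations correlated at -0.12 to 0.16, so the numbers were not taken to pair samples; the replicate block left the member counts at 1.

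In anti-B7-H3 against anti-PD1, Chil3 turned to 0.30 and Vcan to 0.37 without anti-PD1 replicate 1, and Fn1 to -0.04 and Ms4a4c to -0.02 without anti-B7-H3 replicate 1. Over all single libraries left out, these ran from -0.81 to 0.30, -2.15 to 0.37, -0.04 to 0.71 and -0.02 to 0.58. In anti-B7-H3 against IgG, Vcan ran from -0.34 (without anti-B7-H3 replicate 1) to 5.02. In anti-PD1 against IgG, Ly6c2, Ms4a4c and Plac8 turned to -0.17, -0.05 and -0.04 without IgG replicate 2 and to -0.11, -0.15 and -0.02 without both libraries, and Plac8 to -0.03 without TMM; with single libraries left out their highest values were 0.48, 0.57 and 0.30. Vcan has no value under the filter of 5 CPM in 3 libraries. Low counts limit Chil3 in IgG replicate 2 and the Fn1 transcript shares with IgG.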

Other observations

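The 20 type I interferon response genes had 2 calls in anti-B7-H3 against IgG, both lower. Ifit1 fell by 1.40 on the log2 scale (SE 0.27, edgeR adjusted p = 0.0407) and Ifit3 fell by 1.44 (SE 0.25, edgeR adjusted p = 0.0236). With each library left out, 0 to 2 were called. None was called in anti-PD1 against IgG by edgeR, while DESeq2 called 3 and 4 had an unadjusted edgeR p under 0.05, and the list medians were -0.13 and 0.09. Of 10 plasma cell genes, 4 rose under anti-PD1 and none under anti-B7-H3 by edgeR (1 by DESeq2, 4 at an unadjusted edgeR p under 0.05), with medians of 1.07 under anti-B7-H3 and 1.92 under anti-PD1 and sums of 514 to 721 CPM under anti-B7-H3, 1116 to 1486 CPM under anti-PD1 and 160 to 512 CPM with IgG. The immunoglobulin joining chain gene Jchain rose by 1.88 ± 0.40 under anti-PD1 (edgeR adjusted p = 0.0453). The anti-PD1 count ran from 0 to 4 with each library left out, and none differed between the antibodies by edgeR. B cell (10 tested, medians 2.25 under anti-B7-H3 and 0.97 under anti-PD1), plasmacytoid dendritic cell (9 tested, 0.26 and -0.26) and endothelial genes (4 tested, 0.76 and -0.75) had no call against IgG by edgeR. The B cell sum was 566, 130 and 65.3 CPM under anti-B7-H3, with replicate 1 far above the others, 50.2 to 151 CPM under anti-PD1 and 31.4 to 95.1 CPM with IgG. DESeq2 called 1 B cell gene under anti-B7-H3 and none of the others. At an unadjusted edgeR p under 0.05 there were 3 and 1 B cell, 0 and 1 plasmacytoid dendritic cell and 0 and 0 endothelial genes.

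Anti-B7-H3 replicate 1 and IgG replicate 3 resembled each other in several genes, chosen after their values were seen. Ly6c1 stood at 63 CPM in anti-B7-H3 replicate 1 and 59 CPM in IgG replicate 3, against 1.3 to 11.3 CPM in the other 7 libraries. The naive T cell factor Lef1 stood at 299 and 325 CPM, against 98.6 to 147 CPM. Ccr2 stood at 151 and 118 CPM, against 255 to 339 CPM, and Cd44, a marker of antigen-experienced T cells, at 116 and 88.3 CPM, against 149 to 264 CPM. The same libraries had the highest Ms4a4c (123 and 83.6 CPM) and the highest T cell sums (7128 and 7790 CPM). They belong to different groups, and what they share was not tested.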
